A study of Mus musculus with 4 samples.

Results

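Remote myocardium is the working muscle that lies away from an infarct. Spots taken to stand for it were followed over 4 days after myocardial infarction (MI) in mouse heart sections measured by Visium. In this slide assay each barcoded spot captures RNA from the small group of cells above it. The spots were chosen by the share of their UMIs (unique molecular identifiers, which count mRNA molecules once each) in Myh6 and Myl2, the ventricular myosin heavy and light chain genes. In each section the 50% of spots with the highest share were taken, out of those with at least 500 UMIs and at most 1% of UMIs in hemoglobin genes. Of the spots within these limits, 942 of 1884 were taken at day 1, 837 of 1674 at day 4, 915 of 1830 at day 7 and 1018 of 2036 at day 14. These were 3712 of the 9102 spots in the 4 sections, and 1332 barcodes occurred in all 4 files. Because Myh6 and Myl2 chose the spots, both were left out of every comparison and of every total.

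Per the labels all 4 were hearts after LAD ligation, and per the study's methods they came from female Hsd:ICR (CD1) mice, an outbred stock, 12 weeks old. The left anterior descending artery (LAD) was tied permanently in each, and the hearts were taken 1, 4, 7 or 14 days later. Every group therefore carried an infarct, and no uninjured or sham-operated heart was among these sections. With 1 mouse and 1 section a day, the day, the animal and the section cannot be told apart, so no test between days was possible. All intervals are 95% intervals of counting error only. The study's results text names day 2 for the earliest section, while the labels and methods give day 1, which is used here.

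After an infarct, the surviving ventricle away from the scar carries more load than before, and its cardiomyocytes are known to return to parts of the fetal gene program. Natriuretic peptides and stretch-responsive proteins of the sarcomere are the classical readouts of that state. Remote tissue also receives systemic acute phase and immune signals, and its fibroblasts and vessels can remodel without a scar being formed. Each Visium spot held cardiomyocytes together with capillaries, fibroblasts and resident immune cells. Fewer cells of a type and less RNA per cell cannot be told apart in the summed values that follow.

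The spots carried the genes of ventricular muscle in every section. Myh6 and Myl2 together made up at least 2.13%, 1.84%, 2.18% and 2.19% of UMIs in the last spot taken on days 1, 4, 7 and 14, against at most 2.13%, 1.84%, 2.18% and 2.19% in the first spot not taken, so the boundary was a midpoint and not a gap. The median share was 2.56%, 2.28%, 2.57% and 2.38% inside and 1.08%, 0.652%, 0.733% and 1.95% outside. On day 14 the median outside was thus close to the boundary. The 13 other cardiomyocyte markers (Tnni3, Tnnt2, Actc1 and Atp2a2 among them) were all detected on every day, and their summed level was 74832, 64029, 72387 and 71179 CPM (CPM, counts scaled to a total of 1e+06 UMIs without Myh6 and Myl2). In the third of 4 equal parts by Myh6 and Myl2 share, which was not taken, they summed to 59380, 46288, 55824 and 68208 CPM. On day 14 these markers were thus close inside and just outside the boundary. Of genes that mark atrial muscle, Myl7 and Sln were at 0.793 CPM or below on each day, and Bmp10 had no UMI on any day. The 6 atrial markers other than Nppa summed to 20.63, 16.39, 27.96 and 22.04 CPM on days 1, 4, 7 and 14, so atrial markers were not absent. Nppa, also listed as an atrial marker, reached 1205 CPM on day 4 and is described below. The part of atrial muscle in the remote sums was not tested.

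**Figure D1:**
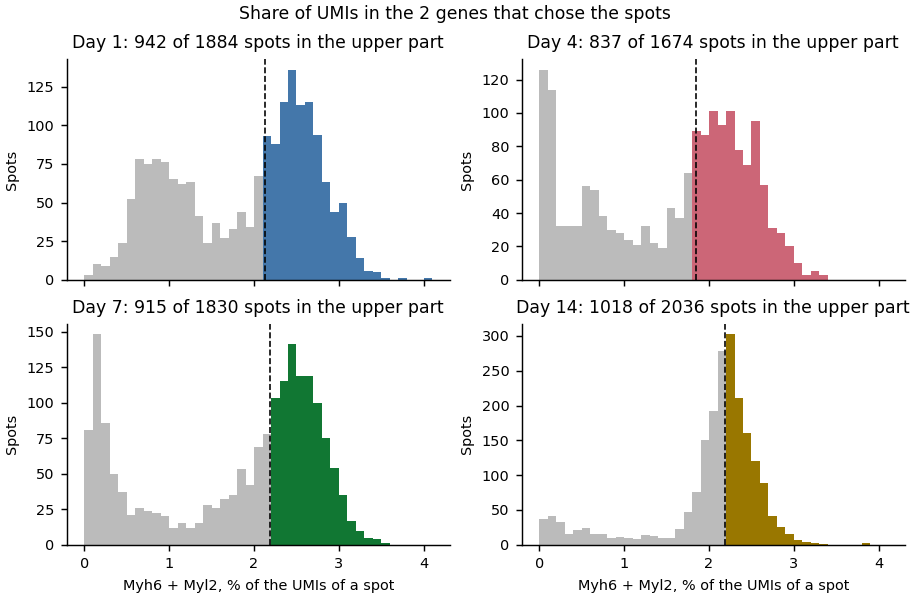
Histograms of the share of UMIs in Myh6 and Myl2 per spot (x axis, percent) against the number of spots (y axis) in the sections of days 1, 4, 7 and 14. The dashed line is the share of the last spot taken and coloured bars lie above it. On days 1, 4 and 7 the shares form a low and a high group, while on day 14 most spots lie within 1 peak that the boundary of 2.19% divides.

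The 4 sums held 6169940, 8056030, 5177150 and 8695820 UMIs on days 1, 4, 7 and 14, Myh6 and Myl2 included, with medians of 6328, 9586, 5559 and 8685 UMIs per spot. A gene without a UMI would lie under 0.354 to 0.595 CPM, the level of 3 UMIs. Mitochondrially encoded transcripts took 29.6%, 36.0%, 27.8% and 34.1% of the UMIs. The median log2 ratio over all genes moved opposite to that share, at -0.14 for day 4 against day 1, 0.22 for day 7 against day 4, -0.21 for day 14 against day 7 and -0.13 for day 14 against day 1. Gene lists below are therefore read against these medians. With a total that left out mitochondrial transcripts, the all-gene medians were 0.003, 0.05, -0.08 and -0.03 in the same order.

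Between successive days the remote myocardium kept most of its profile. Of 4714 genes with enough UMIs, 92.2% lay within 1.5-fold between days 1 and 4, 88.6% between days 4 and 7 and 86.3% between days 7 and 14. Genes at least 2-fold higher numbered 33 on day 4 against day 1 (0.7% of those compared), 78 on day 7 against day 4 (1.65%), 11 on day 14 against day 7 (0.233%) and 13 on day 14 against day 1 (0.276%). Those at least 2-fold lower numbered 39 (0.827%), 28 (0.594%), 119 (2.52%) and 38 (0.806%) in the same order. In all, 277 genes (5.88%) differed by 2-fold or more between their highest and lowest day, and 161 of them were highest on day 7, against 54 on day 1, 50 on day 4 and 12 on day 14. Over all 4714 genes, whatever their range, 51.5% were highest on day 7, while days 1, 4 and 14 held the highest level of 29.5%, 9.42% and 9.52%. The lowest level fell on day 4 for 41.2% and on day 14 for 36.7%, so counts of highest and lowest days below are read against these shares. Day 7 was also the section with the lowest depth and the lowest share of mitochondrial transcripts. With all sums thinned to the depth of day 7, the counts against day 4 were 81 higher and 24 lower, and those of day 14 against day 7 were 10 higher and 114 lower. Scaling by the median of ratios, which sets the all-gene median near 0, moved the balance of directions to 53 higher and 23 lower on day 4 against day 1, 41 and 47 on day 7 against day 4, 18 and 50 on day 14 against day 7, and 19 and 25 on day 14 against day 1.

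**Figure D2:**
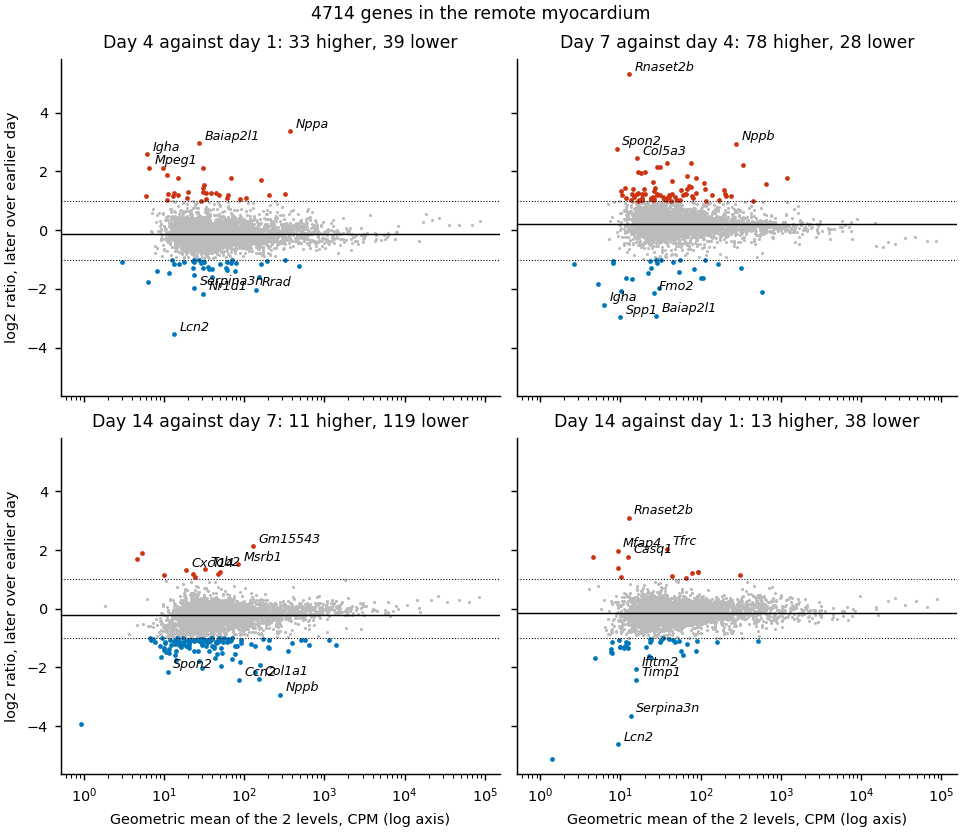
Log2 ratio of the later over the earlier day (y axis) against the geometric mean of both levels (x axis, CPM, log axis) for 4714 genes of the remote myocardium in 4 comparisons. Red and blue points are at least 2-fold higher or lower (dotted lines), the solid line is the median of all genes, and names mark the 4 genes furthest out in each direction among those with at least 100 UMIs in the higher day. The counts above each panel are 33 and 39, 78 and 28, 11 and 119, and 13 and 38.

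The natriuretic peptide genes, whose products lower blood volume and pressure, were highest in different sections. Nppa, which encodes atrial natriuretic peptide, peaked on day 4, and Nppb, which encodes the B-type peptide, peaked on day 7. They are neighbours on the plus strand of chromosome 4 in GRCm38, Nppb at chr4:147985788-147987205 and Nppa at chr4:148000722-148002079, with 13516 bases between them. The bases upstream of each RefSeq start (GRCm38.p6) are shown because these 2 adjacent genes peaked on different days. Those of Nppa run from 250 to 1 bases before its start, at chr4:148000472-148000721. Those of Nppb run from 250 to 113 bases before its start, at chr4:147985650-147985787, and stop where an annotated exon of Nppb begins. Capitals mark matches, on either strand, to a GATA motif (TGATAA) and an NKX2-5 motif (TNAAGTG), and a TEAD motif (CATTCC) was also searched.
Nppa upstream: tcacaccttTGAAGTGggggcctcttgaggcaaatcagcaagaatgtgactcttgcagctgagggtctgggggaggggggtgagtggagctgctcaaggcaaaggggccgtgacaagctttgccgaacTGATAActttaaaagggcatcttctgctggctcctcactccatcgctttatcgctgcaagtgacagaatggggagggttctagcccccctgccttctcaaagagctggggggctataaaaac
Nppb upstream: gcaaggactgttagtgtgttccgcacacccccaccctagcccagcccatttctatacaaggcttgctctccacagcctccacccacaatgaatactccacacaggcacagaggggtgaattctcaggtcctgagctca
The Nppa stretch held 1 GATA match and 1 NKX2-5 match and no TEAD match. In the shorter Nppb stretch none of these letters was found. The bases nearest the Nppb start were not searched, so the 2 genes cannot be compared by their matches. Among 32851 RefSeq windows of 250 bases, 7.94% held the GATA motif, 10.1% the NKX2-5 motif and 12.6% the TEAD motif, so a match describes the letters and does not show binding.

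Nppa stood at 116, 1205, 283 and 64.2 CPM at days 1, 4, 7 and 14. The day 4 level was 10.4-fold that of day 1 (counting interval 9.60 to 11.2), and no other gene with at least 100 UMIs had a larger ratio in that comparison. From there the level was 4.25-fold lower on day 7 (4.02 to 4.50) and a further 4.41-fold lower on day 14 (3.99 to 4.88), which left it below day 1. Nppb took another course, with 97.5, 101, 778 and 102 CPM at days 1, 4, 7 and 14. Days 1, 4 and 14 lay within a few CPM of each other with this choice of spots. With spots chosen by Tnni3, Tnnt2, Actc1 and Myl3, the log2 ratio of Nppb was -1.28 on day 4 and -1.51 on day 14 against day 1. Day 7 was 7.73-fold higher than day 4 (7.16 to 8.35), and that log2 ratio was 2.45 or more under every alternative. Day 14 was then 7.62-fold lower than day 7 (7.08 to 8.21). Gm13054, a gene on the other strand, overlaps Nppa in the annotation, and whether the counting used strand is not given in the sources used here. The same limit holds for Myh7, Ccn2, Timp1, Fn1, Mt2, Dbp, Casq1, Rrad, Baiap2l1, Eln and Mfap4 below, which genes on the other strand also overlap.

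Most listed stretch-responsive and fetal genes were highest on day 7, on a list that includes Nppa and Nppb. Of 19 listed, 13 had enough UMIs to compare. Of those, 11 had their highest level on day 7, Nppb included, against 51.5% of all genes. Ankrd1, a Z-disc and nuclear protein induced by stretch, stood at 669, 858, 1657 and 787 CPM at days 1, 4, 7 and 14. Myh7, the slow myosin heavy chain of the fetal ventricle, was at 379, 432, 733 and 353 CPM on the same days. Clu, the secreted chaperone clusterin, was at 583, 739, 977 and 418 CPM. All 3 had their highest value on day 7, and their log2 ratios of day 14 against day 7 were -1.07 (-1.12 to -1.03), -1.05 (-1.12 to -0.98) and -1.22 (-1.29 to -1.16). Acta1, the skeletal actin that the fetal heart also uses, did not share this course, with 277, 133, 312 and 525 CPM and its highest level on day 14. For the list, 3 of 13 genes were at least 2-fold higher and 1 lower on day 7 against day 4. Nppb and Acta1 were among the 3, and the 1 was Nppa. Over all genes 1.65% were higher and 0.594% lower there, and the list's median log2 ratio was 0.76 against 0.22. On day 14 against day 7, 6 of 13 were lower, Nppa and Nppb included, and none higher. There 2.52% of all genes were lower and 0.233% higher, and the list's median was -0.86 against -0.21.

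**Figure D3:**
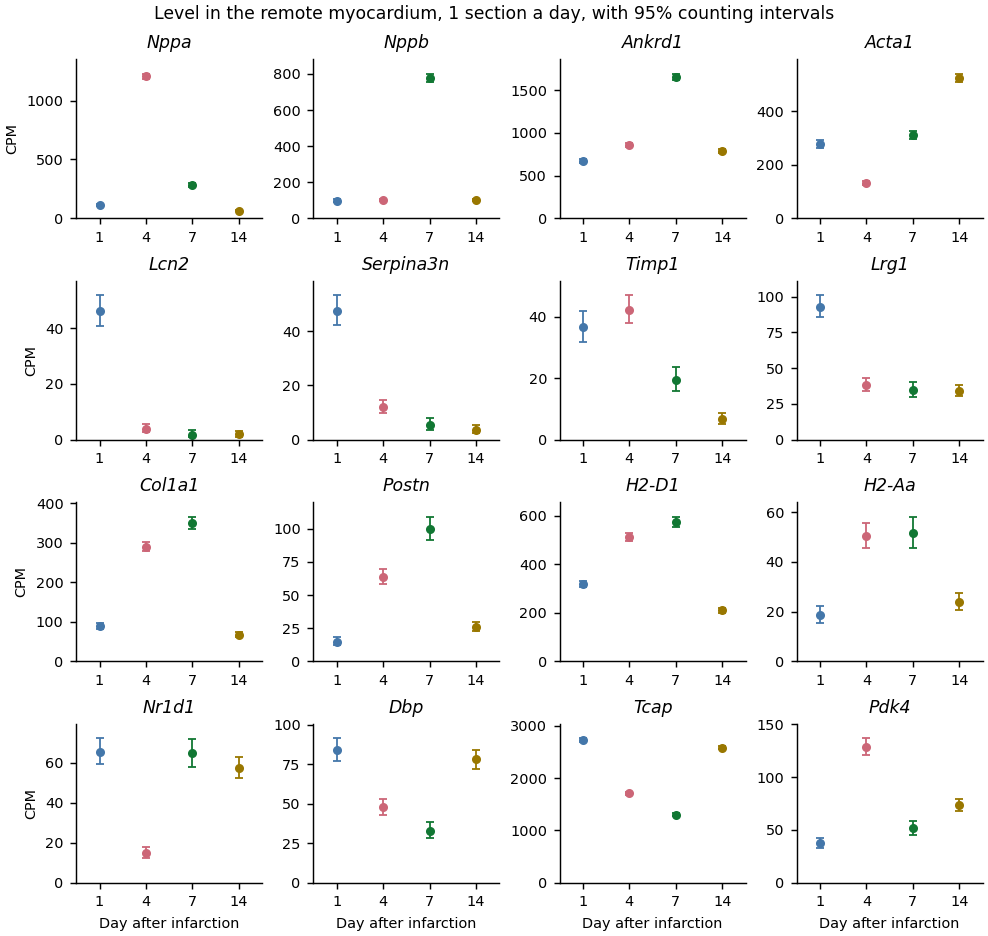
Level in the remote myocardium (y axis, CPM from 0) on days 1, 4, 7 and 14 (x axis, evenly spaced) for 16 genes, 1 section a day, with exact 95% Poisson intervals. Nppa is highest on day 4 and Nppb on day 7, Lcn2 and Serpina3n are highest on day 1, and Nr1d1 is lowest on day 4.

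These 2 peptides were also followed over ranked parts of a section, each on the day of its peak. Gene and section cannot be told apart in that comparison, and the parts are ranks, not places. Spots that passed the limits were ranked by their Myh6 and Myl2 share and divided into 4 equal parts, of which the upper 2 make up the remote myocardium. On day 4, Nppa was at 573, 1766, 16039 and 10839 CPM from the highest to the lowest part. Within the remote myocardium it was thus higher in the lower of the 2 parts, towards the spots in which Nppa was most abundant. On day 7, Nppb was at 772, 785, 1026 and 149 CPM. The first 2 parts were alike, the third was somewhat higher and the last was lowest. On day 1 the same gene had been at 87.6, 106, 985 and 1994 CPM, so at that time most of it lay in the spots outside the remote myocardium. The ranking used Myh6 and Myl2 alone, and these values are a description of the sections.

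Part of the remote spots carried much RNA of the 8 genes that mark border myocardium, all of which are also on the stretch list. Their share was above the median of all spots in 114 of 942 remote spots on day 1 and 211 of 837 on day 4. On day 7 this held for 616 of 915, most of the spots taken, and on day 14 for 214 of 1018. Without those spots the log2 ratio of Nppa on day 4 against day 1 was 2.32 in place of 3.37, and that of Nppb on day 7 against day 4 was 2.86 in place of 2.95. Those of Ankrd1, Myh7 and Clu on day 7 against day 4 were 0.54, 0.12 and 0.05 in place of 0.95, 0.76 and 0.40. Those of the same 3 genes on day 14 against day 7 were -0.54, -0.49 and -0.40, no longer 2-fold. These genes also chose which spots were left out, so the smaller values are a description. Over the stretch and fetal genes, 2 of 12 were then at least 2-fold lower and 1 higher on day 14 against day 7. For the interstitial matrix list 5 of 26 were lower in that comparison, and for the antigen presentation list 2 of 11, with none higher in either. Of all 4645 genes compared without those spots, 60 were lower and 20 higher. With spots chosen by Tnni3, Tnnt2, Actc1 and Myl3 instead, which shared 67.3% to 84.9% of spots with the main choice, the ratio of Nppa on day 4 against day 1 was 1.89. On day 1 Actc1 itself was at 8558, 8026, 8867 and 9766 CPM over the 4 parts, and so did not follow the Myh6 and Myl2 share.

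**Figure D4:**
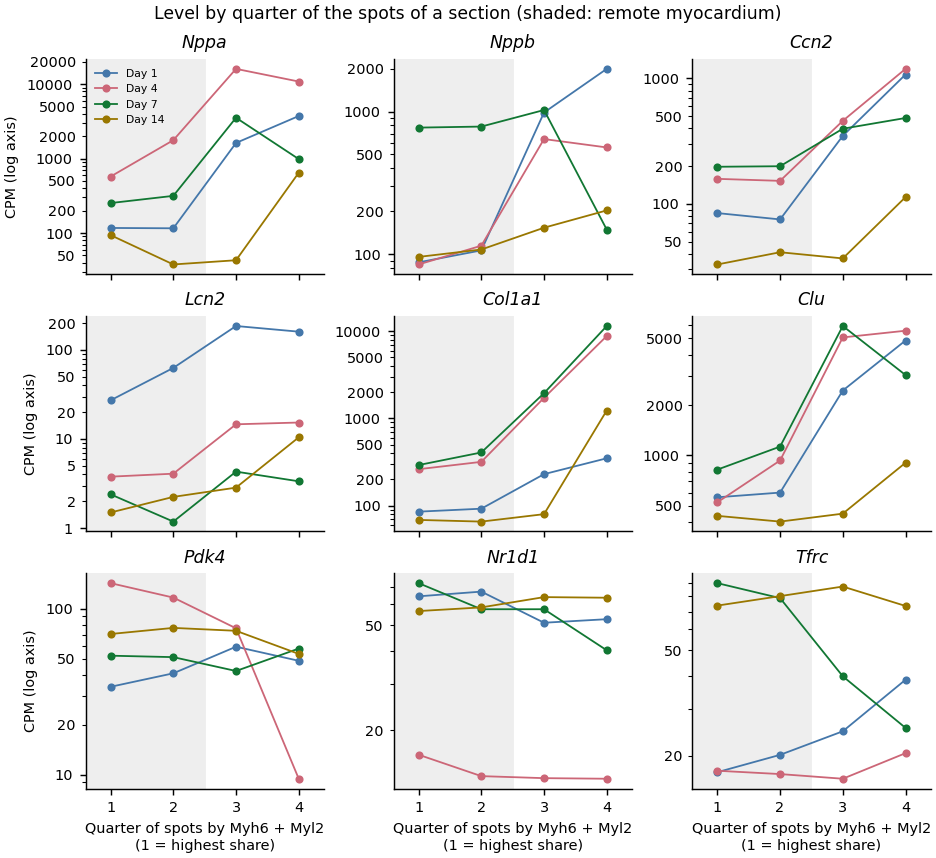
Level (y axis, CPM, log axis) of 9 genes in the 4 equal parts of each section ranked by Myh6 and Myl2 share (x axis, 1 is the highest), with 1 line per day and the remote myocardium shaded. Nppb on day 7 is alike in parts 1 and 2 and close to that in part 3, whereas Nppa on day 4 is higher in each of parts 1 to 3 in turn, and Col1a1 is highest in part 4 on every day.

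Several secreted acute phase proteins were highest on day 1, though their list as a whole was not lower on day 4 relative to other genes. Such proteins are made in large amounts when interleukin 6, oncostatin M and related cytokines act through STAT3. Lcn2, an iron-scavenging protein of innate immunity, stood at 46.1, 3.94, 1.78 and 1.89 CPM at days 1, 4, 7 and 14, and day 4 was 11.7-fold lower than day 1 (8.06 to 17.6). Serpina3n, an inhibitor of serine proteases, was at 47.4, 12.1, 5.55 and 3.77 CPM on these days, 3.93-fold lower on day 4 (3.10 to 5.01) and 12.6-fold lower on day 14 than on day 1 (8.71 to 18.7). Lrg1, a glycoprotein that acts on vessels, was at 93.0, 38.5, 34.7 and 34.2 CPM, so day 1 was highest and the 3 later days were close. Its log2 ratio on day 4 against day 1 was -1.27, and -0.84 with the upper 25% of spots. Timp1, an inhibitor of matrix metalloproteinases, was at 36.6, 42.3, 19.4 and 6.83 CPM. Days 1 and 4 were close, and day 14 was 5.35-fold lower than day 1 (3.99 to 7.28).

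Of the 28 genes listed for this response, 15 could be compared. Of these, 7 were highest on day 1, against 29.5% of all genes, and 5 on day 4, against 9.42%. Fga, Fgb, Fgg, Orm1, Saa1 and Saa2, which the liver makes, had no UMI on any day. Of the 15 compared, 5 (Lcn2, Serpina3n, Lrg1, Timp1 and the osteopontin gene Spp1) were at least 2-fold lower on day 14 than on day 1 and none higher. Over all genes 0.806% were lower and 0.276% higher in that comparison. The list had a median log2 ratio of -0.50 against -0.13 for all genes. On day 4 against day 1, Lbp, which binds bacterial lipopolysaccharide, and Spp1 were the 2 members at least 2-fold higher. In that comparison 3 were lower (Lcn2, Serpina3n and Lrg1). Over all genes 0.7% were higher and 0.827% lower there, and the list's median was -0.05 against -0.14. Lbp was at 7.65, 15.6, 9.32 and 10.4 CPM. The log2 ratio of Spp1 there was 1.78, and 0.02 with spots chosen by the 4 other cardiomyocyte genes. Receptors and transcription factors of the pathway varied less. Il6st, the shared receptor subunit, was at 96.3, 92.9, 94.0 and 71.2 CPM, and Stat3 was at 73.5, 59.0, 61.9 and 59.7 CPM. Osmr, the receptor for oncostatin M, was at 14.1, 13.6, 16.5 and 8.84 CPM. Socs3, which is induced by STAT3 and limits it, was too low to compare, at 6.99, 2.54, 3.97 and 1.06 CPM. Within the section of day 1, Lcn2 was at 27.2, 62.9, 186 and 161 CPM from the highest to the lowest part by Myh6 and Myl2, and Lrg1 at 67.1, 116, 388 and 298 CPM, so both were present in the remote myocardium and higher outside it. Neutrophil markers, which Lcn2 can accompany, summed to 21.0, 14.4, 14.1 and 10.8 CPM over 11 genes other than G0s2 in the remote sums, with Mmp8 and Ly6g at 0 on every day, and their part in the result was not tested. The log2 ratio of Timp1 on day 4 against day 1 turned direction with spots chosen by the 4 other cardiomyocyte genes, from 0.21 to -1.74.

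Immediate early genes, which cells switch on within minutes of a stimulus, did not share 1 course. Ccn2, the matricellular connective tissue growth factor that YAP and TEAD activate, stood at 79.5, 155, 198 and 37.2 CPM at days 1, 4, 7 and 14. It was thus highest on day 7 and 5.32-fold lower on day 14 (4.68 to 6.06). Ccn1, its close relative, was at 25.0, 25.9, 55.1 and 27.3 CPM, with day 7 above the other 3 days. Btg2, which restrains proliferation, was at 40.3, 14.0, 17.1 and 13.1 CPM and so was highest on day 1, 3.08-fold above day 14 (2.45 to 3.89). Junb, a subunit of AP-1, followed with 17.6, 11.4, 11.3 and 8.01 CPM. On day 14 against day 1, 4 of 16 compared members were at least 2-fold lower and none higher, against 0.806% and 0.276% of all genes. The list's median log2 ratio was -0.27 against -0.13 for all genes. Ccn2 on day 4 against day 1 was 0.97 and became -0.18 with spots chosen by the 4 other cardiomyocyte genes.

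Of 17 chaperones compared, 10 were highest on day 7, close to the 51.5% of all genes, and 10 were lowest on day 14, against 36.7% of all genes. Hsp90aa1, the inducible cytosolic HSP90, stood at 98.0, 121, 187 and 81.1 CPM at days 1, 4, 7 and 14, and Hsph1, its partner that renews HSP70, at 38.6, 33.3, 66.0 and 26.9 CPM. Dnaja1, a co-chaperone of HSP70, was at 59.4, 96.3, 118 and 49.0 CPM. Their log2 ratios of day 14 against day 7 were -1.21 (-1.35 to -1.06), -1.30 (-1.55 to -1.05) and -1.27 (-1.45 to -1.09). These 3 were the only members of 17 past 2-fold in any of the 4 comparisons. On day 14 against day 7, 2.52% of all genes were at least 2-fold lower. The list's median was 0.27 against 0.22 for all genes on day 7 against day 4, where 9 of 17 lay above the all-gene median. On day 14 against day 7 it was -0.45 against -0.21. Hspa5, the main chaperone of the endoplasmic reticulum, was lowest on day 4, with 392, 258, 505 and 307 CPM. The small heat shock protein Hspb1 was at 318, 364, 496 and 252 CPM.

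Genes of the interstitial matrix were mostly highest on day 7. Col1a1, the main chain of collagen I, stood at 89.2, 291, 350 and 67.2 CPM at days 1, 4, 7 and 14. Postn, a matrix protein of activated fibroblasts, was at 14.8, 63.8, 100.1 and 25.8 CPM, and Fn1, fibronectin, was at 32.1, 74.1, 89.4 and 31.7 CPM. All 3 were low on day 1, high on days 4 and 7 and low again on day 14. Postn was 4.31-fold higher on day 4 than on day 1 (3.43 to 5.46), and Col1a1 was 5.21-fold lower on day 14 than on day 7 (4.74 to 5.74). Other members were lower on day 4 than on day 1. Col6a2, of the collagen VI microfibrils, was at 81.3, 42.9, 122 and 66.1 CPM, and Col15a1, of the basement membrane zone, at 87.8, 41.7, 109 and 95.5 CPM. Eln, elastin, had the same course without being on the list, with 18.3, 13.7, 60.5 and 15.0 CPM, 4.41-fold higher on day 7 than on day 4 (3.53 to 5.54).

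Of 31 listed matrix genes, 28 were compared, and 23 of them were highest on day 7, against 51.5% of all genes. Without the border-like spots the log2 ratios of Col1a1 and Fn1 on day 7 against day 4 turned from 0.27 and 0.27 to -0.17 and -0.25. That of Fn1 on day 4 against day 1 was 1.21, and 0.64 with spots chosen by the 4 other cardiomyocyte genes. On day 4 against day 1, 6 of the 28 were at least 2-fold higher and 1 lower, against 0.7% and 0.827% of all genes (median 0.18 against -0.14). On day 7 against day 4 the numbers were 9 and 1, against 1.65% and 0.594% (median 0.52 against 0.22). On day 14 against day 7 they were 0 and 10, against 0.233% and 2.52% (median -0.80 against -0.21). Day 14 was close to day 1, with 0 higher and 1 lower, against 0.276% and 0.806% (median -0.10 against -0.13). That 1 gene was Timp1. Fibroblast markers were also highest on day 7, with a sum of 3410.5, 3948, 4692 and 2852 CPM over 12 genes, all detected on each day, of which Col1a1, Col1a2, Col3a1, Dcn and Lum are matrix genes themselves. Gsn, the most abundant of them and no matrix gene, was at 1899, 1916, 2298 and 1469 CPM. Endothelial markers, 15 genes all detected on every day, summed to 1659.6, 1768, 1945 and 1515 CPM. Kdr, the receptor for vascular endothelial growth factor, was highest on day 7, at 59.6, 52.1, 116 and 69.9 CPM, whereas Aqp1, a water channel of capillaries, was alike on the first 3 days and lower on day 14, at 143, 138, 127 and 52.3 CPM. The part of these cells in the matrix values was not tested. Col1a1 reached 11472 CPM in the part of the day 7 section with the lowest Myh6 and Myl2 share, against 292 CPM in the highest part.

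Antigen presentation genes were higher on days 4 and 7 than on days 1 and 14. H2-D1, a class I heavy chain, stood at 318, 512, 575 and 210.3 CPM at days 1, 4, 7 and 14, and H2-K1, the other classical class I chain, at 94.2, 153, 210 and 86.5 CPM. H2-Aa and H2-Ab1, the chains of a class II molecule, were at 18.6, 50.4, 51.6 and 23.9 CPM and at 19.5, 47.6, 52.4 and 21.8 CPM. Cd74, the class II invariant chain, was at 9.81, 15.1, 25.8 and 10.4 CPM. Both classes thus had the same 2 high days, with 9 of the 11 compared members highest on day 7, against 51.5% of all genes. On day 4 against day 1, 2 of 11 were at least 2-fold higher (H2-Aa and H2-Ab1), against 0.7% of all genes, with a median of 0.62 against -0.14. On day 14 against day 7, 5 of 11 were lower, against 2.52% of all genes, with a median of -0.95 against -0.21. Class I genes share much sequence with each other, so the level of a single one is uncertain.

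Macrophage markers followed a similar course, summing to 422, 681, 657 and 376 CPM over 16 genes, all of them detected on every day. Lyz2, lysozyme, was at 170.3, 337, 342 and 194 CPM, and C1qa, of the complement C1q complex, at 36.4, 36.5, 49.8 and 23.1 CPM. Spp1, osteopontin, which marks scavenging macrophages of the infarct, was at 8.15, 28.0, 3.57 and 0.236 CPM, of which the last is 2 UMIs. Its log2 ratio of day 7 against day 4 was -2.97 (-3.75 to -2.28), and that of day 14 against day 7 was -3.92 (-7.07 to -1.86). Lgals3, galectin 3, was also highest on day 4, at 8.65, 20.8, 4.96 and 2.71 CPM. Both were thus lower on day 7 than on day 4, whereas Lyz2 was about level and C1qa higher. Over the 9 macrophage markers compared, the median log2 ratio there was 0.02 against 0.22 for all genes. Of these, 2 of 9 lay above the all-gene median. Interferon targets were mostly too low to compare: of 28 listed genes 4 could be compared. Of these, 3 were highest on day 7 and 1 on day 1. Bst2, which tethers virus particles, was at 12.8, 15.1, 29.1 and 12.1 CPM. Iigp1, which interferon induces, and Ifitm2 were not among these 4, were highest on day 1 and are described below. The part of macrophages in the antigen presentation values was not tested.

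Of 24 sarcomere genes, 1 passed 2-fold in the 4 comparisons, Myh7 on day 14 against day 7, and 3 (12.5%, against 5.88% of all genes) had a 2-fold range over the 4 days, Myh7, Tcap and Myom2. Tcap, the titin cap of the Z-disc, stood at 2724, 1713, 1298 and 2584 CPM at days 1, 4, 7 and 14 and was lowest on day 7. Myom2, of the M-band, was at 169.5, 258, 359 and 213 CPM and highest on day 7. Mybpc3, the cardiac myosin-binding protein, was at 1452, 1215, 2142 and 1846 CPM. Among 18 calcium handling genes, 1 passed 2-fold, on day 14 against day 1, where 0.276% of all genes were higher. This was Casq1, the skeletal calsequestrin, at 6.82, 9.78, 14.9 and 23.1 CPM, while Atp2a2, the calcium pump of the sarcoplasmic reticulum, was at 8025, 7623, 7474 and 7985 CPM. The log2 ratio of Casq1 on day 7 against day 4 was 0.60 and turned to -0.67 without the border-like spots, and that of Acta1 on day 14 against day 1 was 0.92 and turned to -0.52 with spots chosen by the 4 other cardiomyocyte genes. Fast skeletal muscle markers other than Acta1 and Ckm, 10 genes in all, summed to 4.82, 2.67, 106 and 2.95 CPM in the remote sums. The fast myosin gene Myh1 had 94 UMIs on day 7 and 0 on the other 3 days, and the part of these markers in the values of Casq1 and Acta1 was not tested. Gja1, the gap junction protein connexin 43, was at 382, 247, 394 and 341 CPM.

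Few genes of energy metabolism passed 2-fold, as few of all genes did. None of 49 nuclear respiratory chain genes and none of 25 genes of glucose use passed 2-fold in any of the 4 comparisons, where 0.233% to 2.52% of all genes did in either direction. Of 33 genes of fatty acid use, 1 did. That was Pdk4, the kinase that keeps pyruvate out of the citric acid cycle, at 37.6, 129, 51.8 and 73.8 CPM at days 1, 4, 7 and 14, with day 4 at 3.43-fold the level of day 1 (2.97 to 3.98). Cpt1b, the carnitine transferase that admits fatty acids to mitochondria, was at 428, 386, 351 and 356 CPM, and Hadha, of the beta-oxidation complex, at 1068, 680.1, 791 and 661 CPM. Of 20 genes for ketone and branched-chain amino acid use, Mccc2, a subunit of the leucine-degrading carboxylase, was lower on day 4 against day 1, at 62.7, 25.3, 27.4 and 42.7 CPM. Pdk4 was also higher in the spots with most Myh6 and Myl2 on day 4, at 143, 117, 76.3 and 9.48 CPM over the 4 parts.

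The 13 mitochondrially encoded genes summed to 304180, 368650, 285890 and 349350 CPM. The median log2 ratio of the 12 compared was 0.33 on day 4 against day 1 and -0.42 on day 7 against day 4, opposite in sign to the median of all genes. These genes are a large part of the CPM total, so a higher share of them lowers the CPM of the others by arithmetic. The 49 nuclear genes of the same complexes had medians of -0.18 and 0.07. Cytosolic ribosomal protein genes differed little from day to day and were lowest on day 1. Their sum was 38412, 41435, 46489 and 44745 CPM, and 78 of the 82 compared lay above the all-gene median on day 14 against day 1.

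**Figure D5:**
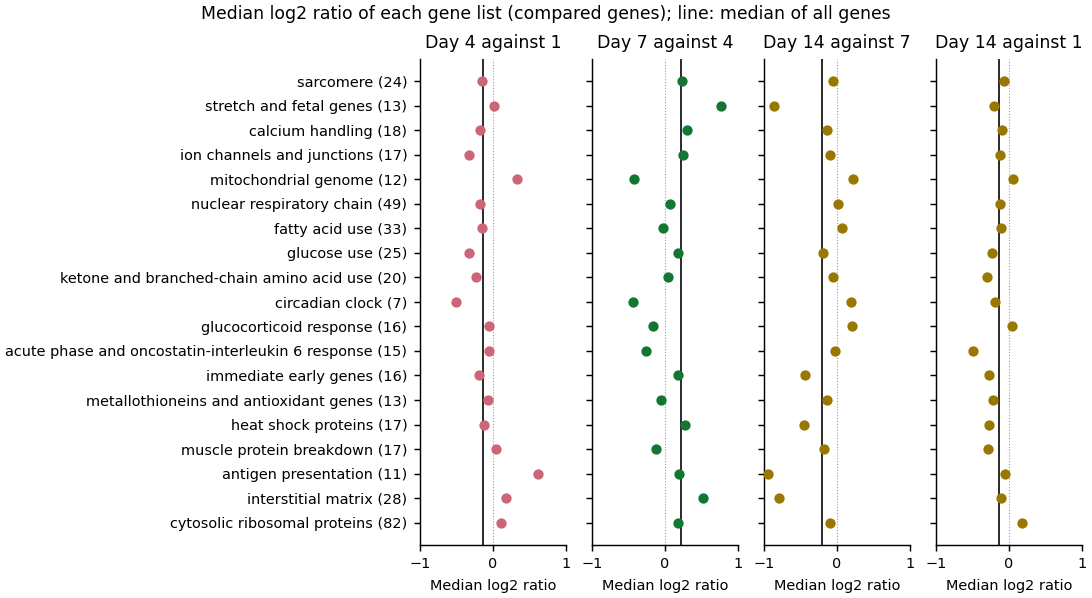
Median log2 ratio (x axis) of the 19 pathway lists (not the cell type markers) with at least 7 compared genes (y axis, number of compared genes in parentheses) in each of the 4 comparisons, with a solid line at the median of all genes and a dotted line at 0. Stretch genes, antigen presentation and interstitial matrix lie furthest below the line of these lists on day 14 against day 7, at -0.86, -0.95 and -0.80, while sarcomere, calcium, fatty acid and respiratory chain lists lie near it on that day or above it.

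Of 7 clock genes compared, 5 were highest on day 1, against 29.5% of all genes. None was higher on day 14 than on day 1. In that comparison their median log2 ratio was -0.19 against -0.13 for all genes, and 2 of 7 lay above the all-gene median. Their median log2 ratio was -0.51 on day 4 against day 1, where that of all genes was -0.14, and -0.44 on day 7 against day 4, against 0.22. These genes cycle over the hours of a day, and the hour at which each heart was taken is not given in the sources used here. Nr1d1, the repressor REV-ERB alpha, stood at 65.7, 14.7, 64.8 and 57.5 CPM at days 1, 4, 7 and 14. Day 4 was 4.46-fold lower than day 1 (3.62 to 5.53), and the other 3 days were alike. Dbp, an output of the clock, was lowest on day 7, at 83.8, 47.8, 32.9 and 78.0 CPM, and so was the core gene Per1, at 35.8, 22.1, 19.4 and 30.4 CPM. Tef, a relative of Dbp, was highest on day 4, at 68.7, 89.2, 52.5 and 51.6 CPM. Of 19 listed genes 7 could be compared. Of them, 2, Nr1d1 and Dbp, differed by 2-fold or more between some days, against 5.88% of all genes. Nr1d1 was low throughout the day 4 section, at 16.2, 13.4, 13.2 and 13.1 CPM over the 4 parts. Thra, a gene on the other strand, overlaps Nr1d1.

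Among glucocorticoid-responsive genes, 8 of 16 compared were lowest on day 7, against 7.11% of all genes. Mt2, a metallothionein induced by zinc, glucocorticoids and cytokines, stood at 102, 59.3, 15.3 and 34.5 CPM at days 1, 4, 7 and 14. It was 3.89-fold lower on day 7 than on day 4 (3.05 to 5.01) and 2.97-fold lower on day 14 than on day 1 (2.58 to 3.42). Mt1, its neighbour gene, was at 719.8, 694, 370.2 and 466 CPM. Gpx3, a secreted peroxidase, was lower on day 14, at 245, 214, 229 and 123 CPM. Of 16 compared glucocorticoid-responsive genes, 3 were at least 2-fold lower and none higher on day 7 against day 4 (Lcn2, Mt2 and Pdk4). Over all genes 0.594% were lower and 1.65% higher there, and the list's median was -0.16 against 0.22. Lcn2 and Pdk4 were described above with their own lists.

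Some of the largest ratios belonged to single genes outside these lists. Rnaset2b, a lysosomal ribonuclease gene, stood at 4.33, 2.03, 80.5 and 37.1 CPM at days 1, 4, 7 and 14, 39.6-fold higher on day 7 than on day 4 (24.1 to 70.0). Its near-identical copy Rnaset2a was at 165, 162, 79.3 and 130.2 CPM, and the 2 copies together were at 169, 164, 159.8 and 167 CPM, so the pair was level over the 4 sections and the ratio of the single copy is uncertain. Baiap2l1, an adaptor that links membranes to actin, was high in 1 section only, at 9.81, 76.1, 10.1 and 9.07 CPM, with day 4 at 7.75-fold the level of day 1 (5.93 to 10.3). It was similar in the first 3 parts of that section, at 84.1, 68.8, 64.2 and 32.8 CPM over the 4 parts. Gm15543, annotated as antisense to Casc1, was at 225, 188, 61.5 and 268 CPM, 4.36-fold higher on day 14 than on day 7 (3.87 to 4.92).

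Tfrc, the transferrin receptor through which cells take up iron, stood at 18.8, 17.3, 84.1 and 77.1 CPM at days 1, 4, 7 and 14. It was 4.87-fold higher on day 7 than on day 4 (4.00 to 5.95), and days 7 and 14 were close. On day 7 it was highest in the spots with most Myh6 and Myl2, at 89.6, 78.7, 39.9 and 25.4 CPM over the 4 parts. Hemoglobin genes, which come from red blood cells and on which spots had been limited, were highest on day 7 as well, with a summed level of 1026, 1121, 3694 and 1701 CPM for 7 erythrocyte genes. With a hemoglobin limit of 0.5% the log2 ratios of day 7 against day 4 were 2.21 for Tfrc and 2.23 for Hba-a2, a hemoglobin gene with a near-identical copy, against 2.28 for both with the limit of 1%, and the part of red blood cells in the level of Tfrc was not tested. Hint2, a mitochondrial hydrolase, was highest on day 1, at 264, 86.9, 101 and 146 CPM, and 3.04-fold lower on day 4 than on day 1 (2.78 to 3.33). Rrad, a small GTPase that inhibits calcium channels, was also highest on day 1, at 282, 69.5, 183 and 176 CPM, and 4.06-fold lower on day 4 than on day 1 (3.68 to 4.48). Nampt, which makes the precursor of NAD, was highest on day 4, at 153, 246, 110.3 and 112 CPM.

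Secreted proteins outside the matrix list also differed. Spon2, a matrix protein that binds bacteria, stood at 11.6, 3.43, 23.6 and 5.30 CPM at days 1, 4, 7 and 14, 6.88-fold higher on day 7 than on day 4 (4.50 to 10.9). Col5a3, a collagen V chain, was at 19.1, 6.99, 38.1 and 18.1 CPM, 5.45-fold higher in the same comparison (4.02 to 7.49). Both were lowest on day 4 and highest on day 7, as Eln was. Over all genes these were also the commonest lowest day (41.2%) and highest day (51.5%). Mfap4, a microfibril-associated protein, was at 4.66, 20.3, 30.3 and 18.3 CPM and was still 3.92-fold above day 1 on day 14 (2.61 to 6.09), where Col1a1 was not. Mpeg1, the perforin-like protein of macrophages, was highest on day 4, at 3.16, 13.8, 10.3 and 5.07 CPM.

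Day 14 had few genes of its own. Of the 277 genes with a 2-fold range, 12 were highest then. Msrb1, which repairs oxidised methionine, was the clearest, at 60.4, 55.3, 49.8 and 142 CPM at days 1, 4, 7 and 14, 2.86-fold higher than on day 7 (2.49 to 3.29). Malat1, a nuclear non-coding RNA, was at 60.6, 121, 203 and 146 CPM and highest on day 7. Among genes low on day 14, Ifitm2, an antiviral membrane protein, was at 32.1, 17.7, 25.8 and 7.66 CPM, 4.19-fold lower than on day 1 (3.15 to 5.64). Iigp1, an interferon-inducible GTPase, was highest on day 1, at 42.6, 19.4, 10.9 and 13.3 CPM. Fmo2, a flavin monooxygenase, was highest on day 4, at 18.6, 54.6, 12.3 and 8.37 CPM, with day 7 4.44-fold lower (3.40 to 5.90). Mgst1, a membrane glutathione transferase, was highest on day 1, at 70.0, 23.3, 17.1 and 35.7 CPM. Bc1, a repeat-derived RNA with many related copies, was at 209, 156, 727 and 464 CPM, and its level is uncertain because of those copies.

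The remaining lists held few genes that could be compared. Of 25 cell cycle genes 4 had enough UMIs, and Ccnd1, cyclin D1, was highest on day 7, at 15.5, 10.3, 40.7 and 22.6 CPM. The mitotic markers Mki67 and Top2a were below the limit for comparison, at 1.83, 1.40, 5.16 and 1.89 CPM and at 0.998, 0.635, 3.17 and 1.41 CPM. Of 21 genes of the integrated stress response 5 could be compared and none passed 2-fold. Only 0.233% to 2.52% of all genes did so in either direction, so none of 5 is no result about this list. Atf4, its main transcription factor, was at 63.9, 56.3, 69.8 and 42.2 CPM. Of 17 genes of muscle protein breakdown 1 passed 2-fold, Map1lc3a, which coats autophagosomes, at 457, 226, 351 and 231 CPM. It did so on day 4 against day 1, where 0.827% of all genes were at least 2-fold lower. The immunoglobulin genes Igha and Igkc, which plasma cells express, were highest on day 4, at 2.50, 15.0, 2.58 and 8.37 CPM and at 5.66, 20.7, 6.74 and 15.0 CPM, and on that day Igkc was at 1.89, 37.4, 12.0 and 32.8 CPM over the 4 parts, so that its remote level rested on 1 of the 2 upper parts. With 1 minimum share of Myh6 and Myl2 for all sections, the log2 ratio of Igkc on day 4 against day 1 turned from 1.87 to -1.90. The 13 T and B lymphocyte markers, Igkc included, summed to 15.1, 29.0, 19.2 and 24.4 CPM. Igkc was the only 1 of them with enough UMIs to compare, so this sum is not independent of it.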

How the data were processed

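Visium libraries of 4 heart sections were analysed. The authors aligned and counted the reads with Space Ranger 1.3.0 on mm10, per the labels, which also name Seurat 4.1.1, and deposited raw UMI counts per gene and spot. Spots with at most 1% hemoglobin UMIs and at least 500 UMIs were ranked by their share in Myh6 and Myl2, and the upper 50% of each section were summed. CPM, counts scaled to a total of 1e+06, left out both genes. Compared genes had at least 1000 UMIs over all spots that passed and 200 over the 4 sums. A ratio of at least 2-fold was counted. Intervals are exact Poisson for levels and exact conditional binomial for ratios, at 95%. The members and gene lists were chosen with earlier results of these data known. Named genes were the 8 with the largest ratios each way per comparison (at least 100 UMIs in the higher day), up to 4 members of each list and members described for their role. Nampt, Rnaset2a and Eln's comparison with the matrix list were chosen after their values were seen. The ratio and its interval were checked on data simulated with counting error alone. That check does not cover differences between mice, sections or spots. Python 3.11.15, pandas 2.3.3 and scipy 1.17.1 were used.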

Additional observations from a re-analysis of the deposited data

How the results depend on the processing

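For the genes with the 8 largest ratios each way per comparison, 675 ratios were recomputed under 12 alternatives. Of these 588 lay within the counting interval, 666 were still at least 2-fold, and 1 turned direction, Igkc on day 4 against day 1, which was -1.90 in place of 1.87 with 1 common Myh6 and Myl2 minimum. A ratio was recomputed only where its gene still passed the filter of that alternative. The 18 ratios with at least 2000 UMIs and the 64 without the filter on low counts used unchanged sums, so these could not differ. Smaller ratios were less stable. Among 136 ratios of 34 genes followed through all comparisons, 34 turned direction under some alternative, none of them 2-fold as reported. Of 96 counts, 63 lay within 1.5 times the value reported, and the others follow as higher and lower where both moved. On day 4 against day 1 (33 and 39) they were 54 and 23 with a total without mitochondrial transcripts, 53 and 23 with median-ratio scaling, 7 and 9 with at least 2000 UMIs, 702 and 939 without the filter on low counts, and 70 lower with spots chosen by 4 other cardiomyocyte genes. On day 7 against day 4 (78 and 28) they were 48 and 43, 41 and 47, 18 and 7, and 1295 and 427 under the first 4 of these. On day 14 against day 7 (11 and 119) they were 18 and 50 with median-ratio scaling, 2 and 22 with at least 2000 UMIs, 379 and 1502 without the filter, 20 and 60 without border-like spots, 65 lower without mitochondrial transcripts and 64 lower with the upper 25% of spots. On day 14 against day 1 (13 and 38) they were 5 and 5 with at least 2000 UMIs, 610 and 1060 without the filter, 25 lower with median-ratio scaling and 109 lower with the 4 other genes. The filters change how many genes are compared. For the other settings the cause was not tested. No paired analysis was possible because each day has 1 section, and no replicate could be left out. The thinned sums were chosen after seeing the data.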
